A study of Mus musculus with 12 samples.

Results

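The comparison of Nrf2 null with wild type liver under vehicle asks which transcripts depend on the transcription factor Nrf2 when no activating compound has been given. It rests on 6 of the 12 arrays of the study, 3 from Nrf2 null and 3 from wild type male mice, chosen by the genotype and compound given in the labels. All 6 livers come from mice gavaged with vehicle (compound dose 0 uM/kg) and are labelled 6 hours. The other 6 arrays hold the same genotypes 6 hours after gavage with CDDO-Im at 30 uM/kg, a synthetic triterpenoid that activates Nrf2, and are used here to set the vehicle difference beside the same difference under the compound, and for the error estimate and the choice of probe sets, which rest on all 12 arrays. The labels give neither the age nor the strain of the mice, nor how the Nrf2 null allele was made, and do not say that each array is a separate animal, so a p-value measures only the scatter among arrays, pooled over the 12 arrays and 4 groups, which may be technical. A bracketed 2, unexplained in the labels, ends each vehicle title and no CDDO-Im title. Each of 18193 genes was represented by 1 Affymetrix probe set with a log2 intensity per array.

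Nrf2, encoded by Nfe2l2, is a basic leucine zipper factor that Keap1 normally holds in the cytoplasm and passes to the proteasome. Electrophiles and oxidants modify Keap1, Nrf2 then accumulates in the nucleus, pairs with small Maf proteins and binds antioxidant response elements near genes of glutathione synthesis, quinone reduction, conjugation, efflux and NADPH supply. In liver the pathway is best known for its induction, and the vehicle comparison looks at the pathway at rest.

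The core letters of the antioxidant response element, TGACNNNGC on either strand, were looked for in RefSeq promoter windows of GRCm38.p6 that run from 250 bases before to 50 bases after each start site, with windows for 14368 genes. Of the genes lower in Nrf2 null liver under vehicle, 6 of 39 with a window (15.4%) held a match, against 2317 of 14368 genes tested (16.1%), and without wild type vehicle replicate 3, an array described further on, 23 of 149 (15.4%) did. Of the genes higher in null, 4 of 18 (22.2%) did. Of the genes lower in null under CDDO-Im, 39 of 125 (31.2%) held a match. Shown here are the matches, in capitals within lower-case flanks and read along the gene's strand, of genes that were lower under vehicle, followed by 4 known Nrf2 target genes that did not pass the test under vehicle. The genes are, in this order, Nfe2l2 (minus strand, chr2:75704879-75704913), Hsd11b1 (minus strand, chr1:193242527-193242567), Klhl13 (minus strand, chrX:23285848-23285888), Slc25a33 (minus strand, chr4:149774275-149774315), Zfand6 (minus strand, chr7:84690108-84690148), Gsta3 (plus strand, chr1:21240448-21240488), Gclm (plus strand, chr3:122245407-122245447), Txnrd1 (plus strand, chr10:82859098-82859138) and Ugdh (minus strand, chr5:65435950-65435990). The known targets shown were chosen for their match, and Ugdh has a second match that is not shown. No match wholly before the start site was found for the other known targets searched. These were Nqo1, Gclc, Srxn1, Gsta2, Gstm1, Me1, Abcc3, Cbr3, Ephx1, Hmox1 and Aox1. The genes lower under vehicle were also chosen for their match, and the match of the sixth is not shown. Of these, Hsd11b1 and Zfand6 were no longer called without wild type replicate 3 (adjusted p = 0.0592 and 0.056). A match describes letters in a window and is not evidence of binding.
Nfe2l2: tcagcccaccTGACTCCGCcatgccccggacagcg
Hsd11b1: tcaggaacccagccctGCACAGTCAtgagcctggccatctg
Klhl13: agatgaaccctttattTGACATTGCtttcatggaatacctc
Slc25a33: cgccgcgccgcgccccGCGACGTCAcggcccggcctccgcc
Zfand6: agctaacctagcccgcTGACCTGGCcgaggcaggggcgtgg
Gsta3: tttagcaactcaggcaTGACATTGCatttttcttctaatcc
Gclm: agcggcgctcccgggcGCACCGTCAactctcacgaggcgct
Txnrd1: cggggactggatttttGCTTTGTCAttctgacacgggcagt
Ugdh: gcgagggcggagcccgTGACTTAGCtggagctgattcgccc

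Wild type vehicle replicate 3 stood apart from the other vehicle arrays. Its mean correlation over all genes was 0.983 with the other 2 arrays of its group and 0.988 with the wild type CDDO-Im arrays, and on the leading principal component it lay at 10.1, against -29.9 to -16.2 for the other 5 vehicle arrays and 3 to 25.4 for the CDDO-Im arrays. Genes that CDDO-Im induces followed in part. Nqo1 was at 5.19 and Srxn1 at 8.18 in this array, beside 5.12 and 5.06, and 8.24 and 8.20, in the other wild type vehicle arrays. Mu class glutathione transferases had a median deviation from their 12-array mean of -0.14 here, beside -0.86 and -0.85. For glucuronidation genes it was 0.20, beside -0.65 and -0.51. For thioredoxin and peroxide removal it was -0.05, beside -0.05 and -0.03. Pancreatic acinar markers, 15 of 20 measured, had a median deviation from their 12-array mean of 3.32 in this array and 1.53 in Nrf2 null vehicle replicate 2, and of -0.58 to -0.43 in the other 4 vehicle arrays. Summed over the list, the acinar signal ranged from 10.3 to 14.2 (log2) in the wild type and from 10.5 to 12.7 in the null vehicle arrays. Hepatocyte markers were high in every array, with Alb at 14.2 to 14.4 and Apoa1 at 14.4 to 14.5. Results are therefore also given without wild type vehicle replicate 3, and the part of these markers in the results was not tested.

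The targeted gene itself separated the genotypes by a wide margin. Nfe2l2 signal was 8.51, 8.60 and 8.69 in the 3 wild type livers and 4.83, 4.87 and 4.44 in the 3 null livers. The null values lay far below the wild type values in each array, a log2 difference of -3.89 ± 0.17 (SE, n = 3 against 3, adjusted p = 7.0e-07). Null signal lay under the array medians of 5.77 to 5.83, near the floor of the arrays, so no fold is given. A dimmer probe set of the gene, with a mean of 4.89 over all arrays, differed by 0.14 (adjusted p over all probe sets = 0.675), and the labels do not say which part of the gene was removed. Keap1, the Nrf2 inhibitor, was at 8.86, 8.70 and 8.67 in wild type and 8.78, 8.69 and 8.80 in null livers, and its arrays overlapped (difference 0.02 ± 0.08). Sqstm1, which competes with Nrf2 for Keap1, was at 11.77 to 11.82 in wild type and 11.33 to 11.47 in null livers. Its groups did not overlap, but the difference of -0.38 ± 0.09 did not pass the test (adjusted p = 0.114).

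Beyond Nfe2l2 the genes called at rest were few and mostly lower in null. At an adjusted p under 0.05, 71 genes were called (0.39% of those tested), 50 lower in null (0.275%) and 21 higher (0.115%), and 2410 genes (13.2%) had an unadjusted p under 0.05. Fitted on the 6 vehicle arrays alone, 18 genes were called (14 lower and 4 higher), 17 of them among the 71, and with arrays weighted by their fit 1477 were called (1003 lower and 474 higher), all 71 among them. The 71 genes had no overlap between the 3 null and the 3 wild type arrays, which holds for 17% of all genes (8.49% with null below and 8.55% with null above). The downward lean was one of the calls: over all genes, 8133 differences were below 0 and 10058 above. Sizes ran from 0.41 to 3.89 on the log2 scale, with 18 of the falls and 5 of the rises at least 2-fold. Without wild type vehicle replicate 3, 219 genes were called (1.2%), 177 of them lower (0.973%) and 42 higher (0.231%). These held 64 of the 71, all 71 kept their sign, and no difference moved by more than 0.39. Leaving out other arrays gave 18 lower and 8 higher genes without wild type replicate 1, 26 and 15 without wild type replicate 2, 12 and 7 without null replicate 1, 15 and 6 without null replicate 2, and 87 and 23 without null replicate 3. Without wild type replicate 3 and null replicate 2 together, the 2 arrays with acinar signal, 90 genes were lower (0.495%) and 27 higher (0.148%), 117 in all (0.643%), with 38 of the 71 among them.

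**Figure D1:**
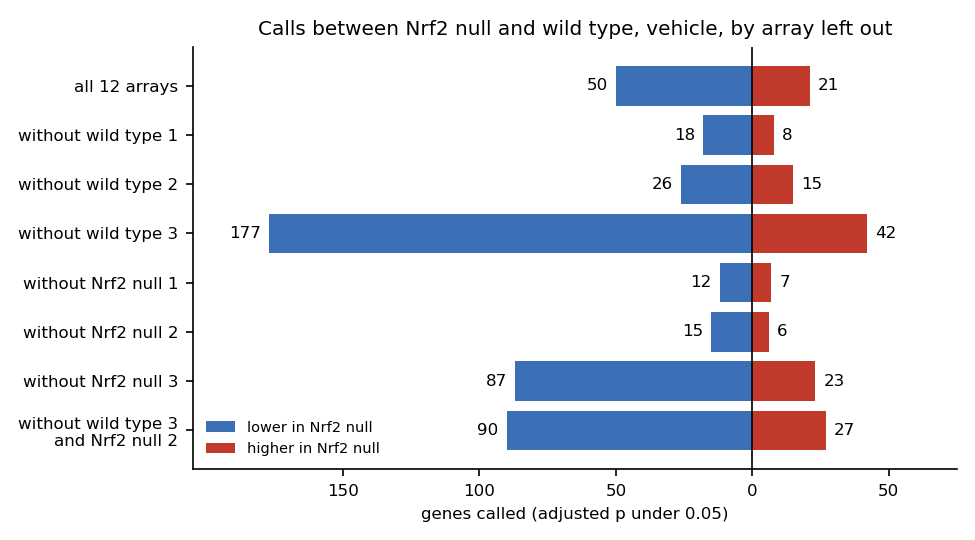
Number of genes called between Nrf2 null and wild type vehicle livers (horizontal axis, lower in null to the left and higher to the right) with all 12 arrays and with single arrays left out. Lower genes outnumber higher genes in each setting, and the count runs from 19 without Nrf2 null replicate 1 to 219 without wild type replicate 3.

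Among the 71, 14 genes were called whichever of the 6 vehicle arrays was left out: Nfe2l2, Cyp2d13, Fam171b, Wfdc2, Cd59a, Dhrs7, Limd2, Slc4a4, Josd2 and Tnfaip8l1 fell, Cxcl1, Cst3 and Cab39l rose, and Ctse was higher by the probe set used but lower by another. Josd2, Tnfaip8l1 and Cab39l were added to the named genes after their values were seen. Josd2, a Josephin domain deubiquitinase, was at 7.82, 7.81 and 7.50 in wild type and 6.72, 6.81 and 6.81 in null livers. Its arrays did not overlap (-0.93 ± 0.11, adjusted p = 0.00335). Of the other genes, 3 were called in 5 of the 6 leave-outs (Aox1, BC029722 and Nme1) and 49 in 3 or fewer, of which 3 in none (Rnd2, Amn1 and Add3), BC029722, Amn1 and Add3 being named after their values were seen because the counts are small.

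**Figure D2:**
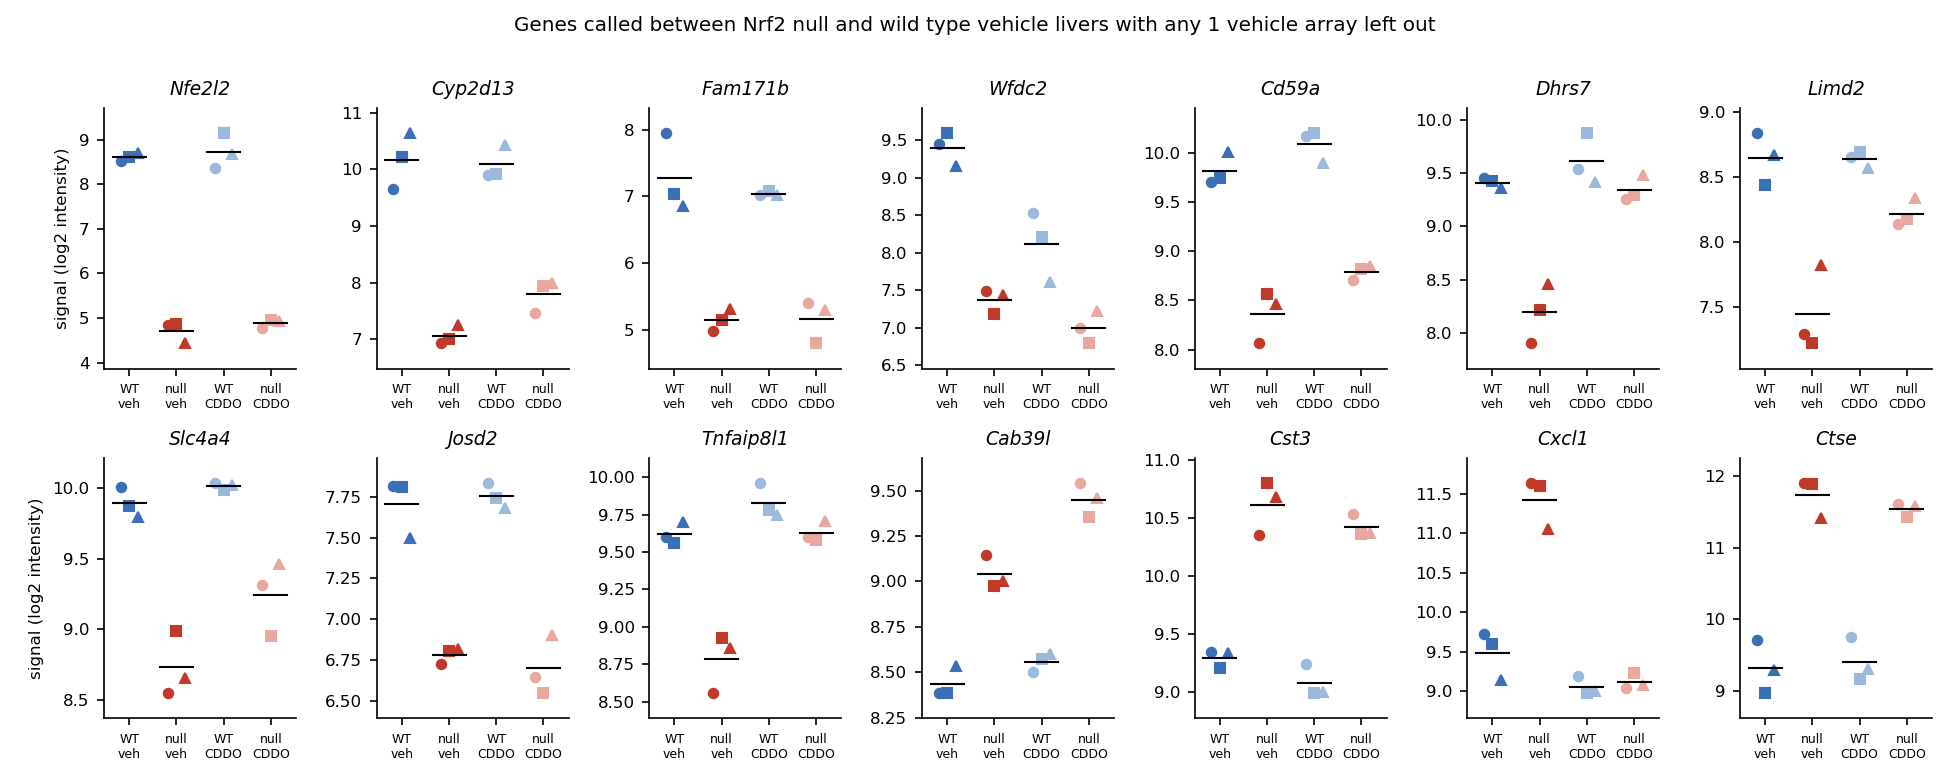
Signal (log2 intensity, vertical axis) of the 14 genes called whichever vehicle array was left out, in wild type and Nrf2 null livers under vehicle and CDDO-Im (circle, square and triangle are replicates 1, 2 and 3, the line is the mean). For each gene the 3 null vehicle arrays lie wholly above or below the 3 wild type vehicle arrays; for Cxcl1 the CDDO-Im groups lie together, at 9.04 to 9.22 in null and 8.97 to 9.19 in wild type.

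Among called genes, the largest falls after Nfe2l2 were in a cytochrome P450, a lipid transporter and secreted or membrane proteins. Cyp2d13, a member of the Cyp2d family of drug-metabolising enzymes, was at 9.65, 10.22 and 10.64 in wild type and 6.93, 7.01 and 7.25 in null livers. No null array came near a wild type array, and the gene fell by 3.11 on the log2 scale (SE 0.23, adjusted p = 0.000145), or 8.63-fold, with its other probe set at -2.19 (adjusted p over all probe sets = 0.000597). Mfsd2a, a transporter of lysophosphatidylcholine, was at 10.17, 10.48 and 9.36 against 7.54, 7.30 and 6.64. Its difference was -2.85 ± 0.40 (adjusted p = 0.0132), and null livers were lower under CDDO-Im as well (-2.04, adjusted p = 0.0271). Wfdc2, a secreted whey acidic protein domain protein, was at 9.45, 9.59 and 9.16 against 7.48, 7.18 and 7.44 (-2.03 ± 0.20, adjusted p = 0.000978). Fam171b, a membrane protein, was at 7.95, 7.04 and 6.85 against 4.98, 5.14 and 5.31 (-2.14 ± 0.24, adjusted p = 0.00311). Wfdc2 and Fam171b null arrays stayed at least 1 log2 unit below wild type arrays. Those of Fam171b lay under the array medians of 5.77 to 5.83.

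Pigr, the receptor that carries polymeric immunoglobulin A into bile, was at 12.38, 12.23 and 12.58 in wild type and 10.59, 10.98 and 11.09 in null livers (-1.51 ± 0.26, adjusted p = 0.0374). Cd59a, which blocks the complement membrane attack complex, was at 9.71, 9.75 and 10.001 against 8.07, 8.56 and 8.46 (-1.45 ± 0.13, adjusted p = 0.000426). The groups were apart for both, and the second probe set of Cd59a was lower too (-0.75, adjusted p over all probe sets = 0.0377). Slc4a4, a sodium bicarbonate cotransporter, fell by 1.16 and Aqp8, a water channel of the bile canaliculus outside the naming rule, by 0.999 (adjusted p = 0.00335 and 0.0405). Cfhr2, a complement factor H related protein, fell by 1.15 (adjusted p = 0.0282). Gas5, a noncoding snoRNA host transcript, fell by 1.30 (adjusted p = 0.0206) and Npm1, the nucleolar chaperone nucleophosmin, by 0.82 (adjusted p = 0.0184). Pigr and Gas5 were called in 2 of the 6 leave-outs, Aqp8 in 1, Cfhr2 in 3 and Npm1 in 4, and without both arrays with acinar signal these 5 were no longer called (adjusted p 0.0585 to 0.0951). Npm1 was the only gene called among 22 measured ribosome biogenesis genes (0.39% of all genes were called), whose median difference was -0.04.

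Rises were fewer and, in the main, below 2-fold. Cxcl1, the neutrophil chemokine, was at 9.73, 9.59 and 9.14 in wild type and 11.64, 11.60 and 11.05 in null livers. All 3 null arrays lay above all wild type arrays, a rise of 1.94 ± 0.17 (adjusted p = 0.000349), and its other probe sets were higher by 3.35 and 2.47 (adjusted p over all probe sets 0.042 and 0.0369). It was the only gene called of 25 measured chemokines, cytokines and NF-kB targets (0.39% of all genes were called), whose median difference was -0.00. Neutrophil markers had 0 of 9 called, with a median difference of 0.08. Cst3, the cysteine protease inhibitor cystatin C, was at 9.35, 9.20 and 9.34 against 10.35, 10.80 and 10.68 (1.31 ± 0.11, adjusted p = 0.000349). Ctse, the aspartic protease cathepsin E, was at 9.71, 8.97 and 9.29 against 11.90, 11.88 and 11.41 (2.40 ± 0.20, adjusted p = 0.000287). The probe sets of Ctse disagreed: a second one, with a mean of 10.2, was lower in null by a log2 difference of -1.56 (adjusted p over all probe sets = 0.0875), and the mean of its probe sets differed by 0.42 (adjusted p = 0.447), so a direction for the gene is not given by this array.

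Bmper, a regulator of bone morphogenetic protein signalling, was at 5.32, 5.60 and 4.64 in wild type and 7.24, 6.56 and 6.72 in null livers (1.65 ± 0.27, adjusted p = 0.0289). Its wild type arrays lay under the array medians of 5.77 to 5.83. Foxa3, a hepatocyte forkhead factor, was at 9.72, 9.63 and 9.71 against 10.45, 10.26 and 10.46 (0.70 ± 0.12, adjusted p = 0.0288). C9, the pore-forming complement component, rose by 0.69 (adjusted p = 0.0338), Nme1, a nucleoside diphosphate kinase, by 0.62 (adjusted p = 0.00886), and Wfs1, an endoplasmic reticulum membrane protein, by 0.75 (adjusted p = 0.0317). Sult1e1, the oestrogen sulfotransferase, was near the floor of the arrays in both groups, at 4.04 to 4.17 in wild type and 4.51 to 4.87 in null livers, and rose by 0.63 (adjusted p = 0.0203). Rnd2 was higher by 1.39 (adjusted p = 0.0449), a call lost with any single vehicle array left out. Foxa3 was called in 1 of the 6 leave-outs, C9 and Wfs1 in 2, Bmper in 3, Sult1e1 in 4 and Nme1 in 5. The other probe set of Nme1 differed by 0.29 (adjusted p over all probe sets = 0.689). The mean of the probe sets differed by -0.33 for Limd2 (adjusted p = 0.0858) and by 0.21 for Cab39l (adjusted p = 0.183). Probe sets whose identifiers end in _x_at or _s_at can hybridise to more than 1 transcript. Those used for Cxcl1, Ctse, Cab39l, Nme1, Limd2, Hadh, Add3, Gstm1 and Gstm3, among others, end so.

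Across genes, other probe sets mostly agreed in sign with the ones used. Of the 71 called genes, 42 had 80 other probe sets, 64 with the same sign and 16 with the opposite sign. When every probe set was tested, 12 of the 80 passed, and 0 of them had the opposite sign.

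Antioxidant and detoxification genes lay slightly below wild type at rest in the median, with hardly a call among them. The lists hold whole gene families, and so not only known targets of Nrf2. Of 140 measured genes in 12 lists (glutathione synthesis, transferases, quinone and carbonyl reductases, thioredoxin, heme and iron, NADPH supply, glucuronidation, esterases, aldehyde and epoxide enzymes and efflux), 1 was called lower under vehicle and 0 higher, at a background of 0.39%. Their median difference was -0.18, with 103 of the 140 below 0, against a median of 0.02 and 8133 of 18193 genes below 0 overall. Without wild type vehicle replicate 3 the median of the 140 was -0.09, with 89 below 0. Their arrays did not overlap for 37 genes with null below and 6 with null above, where 8.49% and 8.55% of all genes did so. Under CDDO-Im, whose group means share no array with the vehicle difference though both tests share an error estimate, 33 of the same 140 genes were called lower in null and 1 higher, at a background of 1.45%, with a median of -0.27. Without wild type vehicle replicate 3, the vehicle count was 6 lower and 4 higher, where 0.973% and 0.231% of all genes were called.

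The gene called was Aox1, an aldehyde oxidase of the liver cytosol. Its signal was 7.52, 7.74 and 8.51 in wild type and 5.77, 6.62 and 5.79 in null livers. The groups were apart, by a log2 difference of -1.86 ± 0.27 (adjusted p = 0.0169), or -1.57 (adjusted p = 0.01) without wild type replicate 3. Under CDDO-Im it was at 10.83 to 11.25 in wild type and 7.81 to 8.29 in null livers, a difference of -3.06.

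In quinone and carbonyl reduction, Nqo1, the NAD(P)H quinone dehydrogenase most often used as an Nrf2 readout, was at 5.12, 5.06 and 5.19 in wild type and 4.99, 4.70 and 4.82 in null livers. The groups did not overlap, yet the difference of -0.28 ± 0.08 did not pass the test (adjusted p = 0.158). Every vehicle array lay under the array medians of 5.77 to 5.83, where a fall in null may be hard to measure. Under CDDO-Im the wild type arrays were at 7.15 to 7.26 and the null arrays at 4.86 to 4.90, and the change of the genotype difference with the compound was 2.03 ± 0.11 (interaction adjusted p = 5.0e-06). Cbr3, a carbonyl reductase, was at 5.30 to 5.53 in wild type and 5.24 to 5.53 in null livers, with overlapping arrays and a difference of -0.07 ± 0.10 (adjusted p = 0.833). Cbr3 also lay under the array medians in every vehicle array. Akr1b8, an aldo-keto reductase, was at 8.30, 8.19 and 7.57 against 7.59, 7.33 and 7.61 (-0.51, adjusted p = 0.191), and was called without wild type replicate 3 (-0.74, adjusted p = 0.00585).

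In glutathione synthesis, Gclc, the catalytic subunit of glutamate cysteine ligase, was at 9.13, 9.29 and 9.60 in wild type and 8.22, 8.58 and 8.96 in null livers (-0.75 ± 0.25, adjusted p = 0.215). Gclm, its modifier subunit, was at 10.77, 10.55 and 10.63 against 10.19, 10.39 and 10.45 (-0.31 ± 0.10, adjusted p = 0.199). Null arrays lay below wild type arrays for both without passing the test. Gsr, glutathione reductase, was at 9.60, 9.56 and 9.68 against 9.38, 9.66 and 9.39, with overlap (-0.14 ± 0.10, adjusted p = 0.619). Slc6a9, a glycine transporter, differed by -0.51 (adjusted p = 0.0727) and was called without wild type replicate 3 (-0.61, adjusted p = 0.0229). Srxn1, the enzyme that reduces overoxidised peroxiredoxins, was at 8.24, 8.20 and 8.18 in wild type and 8.19, 8.30 and 8.16 in null livers. The arrays were interleaved, with a difference of 0.01 ± 0.07, while under CDDO-Im the difference was -2.80. Txnrd1, cytosolic thioredoxin reductase, was at 10.03, 10.19 and 9.68 against 9.61, 9.56 and 9.74 (-0.33 ± 0.12, adjusted p = 0.271). Hmox1, heme oxygenase 1, was at 7.63, 7.70 and 7.48 against 7.38, 7.39 and 7.78 (-0.09 ± 0.15, adjusted p = 0.859).

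Glutathione transferases varied among themselves, and wild type replicate 3 was the highest wild type array for each of those given here except Gstp3. Gsta3 was at 8.43, 9.14 and 11.46 in wild type and 7.68, 7.12 and 8.62 in null livers, with overlap and a wide error (-1.87 ± 0.60, adjusted p = 0.201). Gstm1 was at 10.90, 10.79 and 11.89 against 10.10, 10.42 and 9.96, without overlap (-1.03 ± 0.23, adjusted p = 0.0831), and was called without replicate 3 (-0.68, adjusted p = 0.0229). Gsta4, which conjugates the lipid aldehyde 4-hydroxynonenal, went the other way: it was at 7.53, 7.52 and 8.79 against 8.63, 8.77 and 9.09. Its difference was 0.89 ± 0.27 (adjusted p = 0.183) with all arrays and 1.31 (adjusted p = 0.000666) without replicate 3. Gstm7, Gstp1 and Dcxr, the last an L-xylulose reductase named for this count, were the other 3 detoxification genes called higher in null without that array, by 0.71, 0.46 and 0.73. Gstm3 was at 7.79, 7.89 and 8.21 against 7.76, 7.71 and 7.79 and Gstm4 at 7.89, 7.79 and 8.60 against 7.93, 8.01 and 7.84, with overlap in both. Gsta2 was at 4.71, 4.49 and 6.25 against 4.76, 4.96 and 4.54, so that 1 wild type array set its difference of -0.39 ± 0.41. In the other vehicle arrays Gsta2 lay under the array medians of 5.77 to 5.83. Gstp3, a pi class transferase that is in none of the lists and was named after its values were seen, fell by 1.06 (adjusted p = 0.0105), from 9.48 to 9.62 in wild type to 8.37 to 8.70 in null livers.

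**Figure D3:**
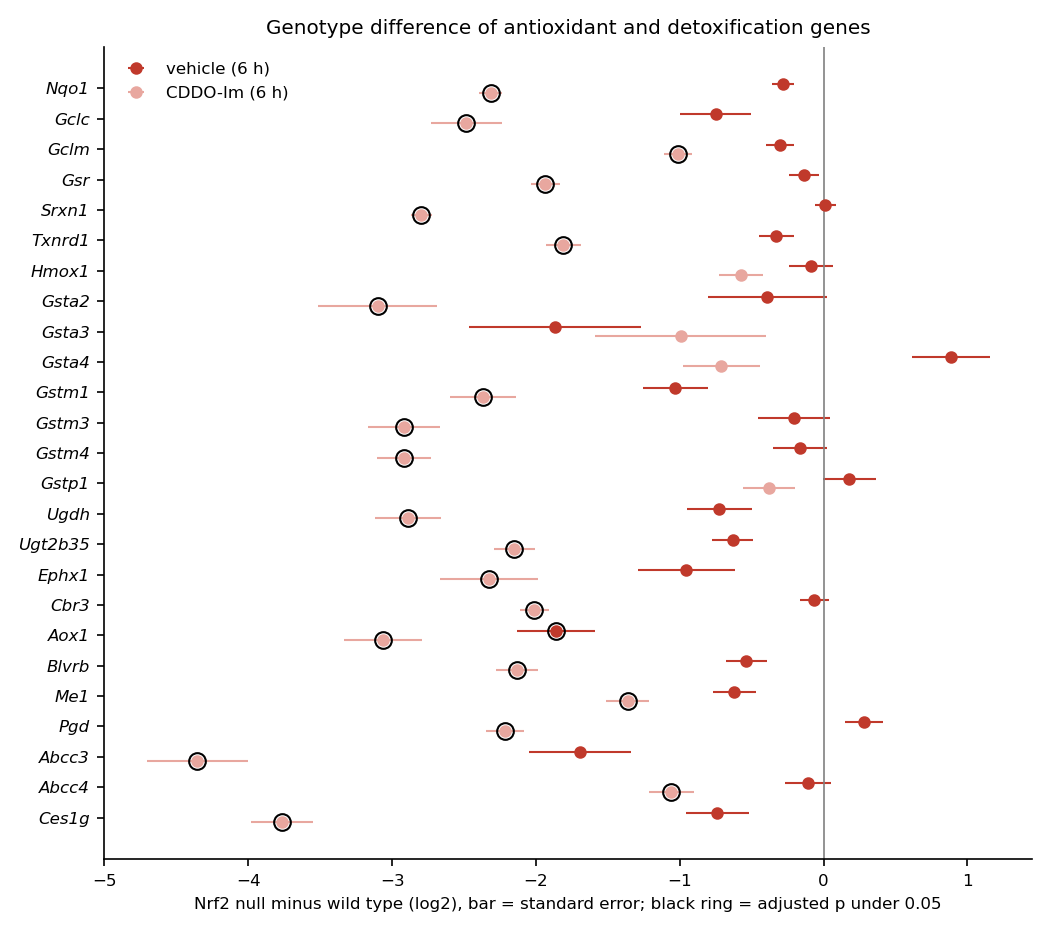
Log2 difference of Nrf2 null minus wild type (horizontal axis, bar is the standard error) for 25 antioxidant and detoxification genes under vehicle (dark red) and CDDO-Im (light red), with a black ring where the adjusted p was under 0.05. Under vehicle Aox1 alone carries a ring; under CDDO-Im the rings lie between -1.01 (Gclm) and -4.36 (Abcc3).

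In conjugation and efflux, Ugdh, which makes UDP-glucuronate, was at 8.48, 8.48 and 9.47 in wild type and 7.94, 8.35 and 7.96 in null livers (-0.72 ± 0.23, adjusted p = 0.199). Ugt2b35, a glucuronosyltransferase, was at 10.84, 11.03 and 11.38 against 10.31, 10.31 and 10.74 (-0.63 ± 0.14, adjusted p = 0.0841). Neither had overlapping arrays. Abcc3, the basolateral efflux pump of conjugates, was at 8.58, 8.10 and 9.86 against 7.23, 6.97 and 7.26. Its groups were more than 0.8 apart and its difference of -1.69 ± 0.35 just missed the threshold (adjusted p = 0.0727), or passed it without replicate 3 (-1.19, adjusted p = 0.0261). Abcc4, another efflux pump, was at 4.85 to 5.08 in wild type and 4.79 to 4.98 in null livers, with overlap and under the array medians of 5.77 to 5.83. Ephx1, microsomal epoxide hydrolase, was at 10.16, 9.91 and 11.48 against 9.35, 9.35 and 9.98 (-0.95 ± 0.34, adjusted p = 0.248).

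Among esterases, Ces1f had the largest log2 difference of the 140 detoxification genes, uncalled as it was. It was at 8.32, 7.87 and 11.31 in wild type livers and at 5.09, 4.9955 and 5.01 in null livers. The groups lay far apart, but the spread of the wild type arrays left the difference of -4.13 ± 0.88 uncalled (adjusted p = 0.0744, and 0.0628 without replicate 3). Ces1e was at 7.33, 6.89 and 8.32 against 5.44, 5.61 and 5.46 (-2.01 ± 0.55, adjusted p = 0.146) and Ces1g at 4.81, 4.51 and 5.36 against 4.18, 4.29 and 3.995 (-0.74 ± 0.22, adjusted p = 0.173). Ces1g in every vehicle array, and Ces1f and Ces1e in the null arrays, lay under the array medians of 5.77 to 5.83. Carboxylesterases are close paralogs, and signal could be shared between them. For NADPH supply, Me1, malic enzyme, was at 9.41, 9.69 and 9.71 against 8.83, 9.22 and 8.90 (-0.62 ± 0.15, adjusted p = 0.106), while its dimmer probe set passed (-0.98, adjusted p over all probe sets = 0.0377). Pgd, phosphogluconate dehydrogenase, was at 8.10, 8.24 and 8.09 in wild type and 8.34, 8.36 and 8.58 in null livers, without overlap (0.28 ± 0.13, adjusted p = 0.392), and lower under CDDO-Im (-2.21).

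Cytochrome P450 genes and their receptors had 1 of 33 measured members called, where 0.39% of all genes were called. The member was Cyp2d22, at 10.04, 10.33 and 11.34 in wild type and 9.05, 9.36 and 9.19 in null livers. It fell by 1.37 (SE 0.26, adjusted p = 0.0455), or by 0.99 without replicate 3 (adjusted p = 0.00605). The call was kept in 2 of the 6 leave-outs, with an adjusted p of up to 0.209 in the others. Cyp2c29, a phenobarbital-responsive enzyme, was at 10.32, 10.26 and 11.50 against 8.85, 9.35 and 9.42 (-1.49 ± 0.28, adjusted p = 0.0518) and passed without replicate 3 (-1.08, adjusted p = 0.0143). Nr1i3, the receptor CAR, was at 9.75, 9.39 and 10.11 against 8.76, 9.28 and 8.91 (-0.76 ± 0.17, adjusted p = 0.0922). Cyp7b1, an oxysterol hydroxylase of bile acid synthesis with higher expression in male liver, was at 11.72, 11.38 and 12.78 against 12.94, 12.83 and 12.91, a difference of 0.93 (adjusted p = 0.161) that was 1.34 (adjusted p = 0.000666) without replicate 3.

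Fatty acid oxidation genes leaned lower in null livers. Ppara, the nuclear receptor that drives hepatic fatty acid oxidation, was at 10.76, 10.59 and 10.59 in wild type and 9.03, 9.61 and 9.93 in null livers. It fell by 1.13 (SE 0.20, adjusted p = 0.0414), with its other probe sets at -1.65 (adjusted p over all probe sets = 0.000502) and -1.34 (0.0829). The call was kept in 2 of the 6 leave-outs (adjusted p 0.0823 to 0.158 in the others) and was lost with only the 6 vehicle arrays (0.132) and without both arrays with acinar signal (0.0775). Ppara was the only gene called of 24 measured in its list, where 0.39% of all genes were called. Of the 24, 22 were below 0, as were 8133 of all 18193 genes. Null arrays lay wholly below wild type arrays for 13 of them, against 8.49% of all genes. The list was chosen with earlier results of these data known, so these counts are a description and no test. The list's median difference was -0.44, and -0.43 without wild type replicate 3. By array, the list's median deviation was 0.09, -0.12 and 0.16 in wild type and -0.63, -0.16 and -0.41 in null livers, so the null arrays lay lower in each case. Acadm, medium-chain acyl-CoA dehydrogenase, was at 12.46, 12.30 and 12.50 against 11.52, 11.95 and 11.80 (-0.66, adjusted p = 0.114), and Bdh1, the ketone body enzyme hydroxybutyrate dehydrogenase, at 12.03, 11.86 and 11.95 against 10.91, 11.19 and 11.35 (-0.80, adjusted p = 0.0727). Acaa1b, peroxisomal thiolase, differed by -1.48 (adjusted p = 0.132) and Pex11a, a peroxisome proliferation factor, by -0.66 (adjusted p = 0.164). Outside the list, and named after their values were seen, Hadh, a mitochondrial hydroxyacyl-CoA dehydrogenase, fell by 0.82 (adjusted p = 0.037), Cd36, a fatty acid uptake receptor, by 0.81 (adjusted p = 0.0449) and Acsm1, a medium-chain acyl-CoA synthetase, by 0.69 (adjusted p = 0.0449, and 0.0557 without wild type replicate 3). Cd36 and Acsm1 were each called in 1 of the 6 leave-outs, and Hadh in 3. Under CDDO-Im, Ppara differed by 0.24 (adjusted p = 0.785). The list had 2 genes called lower there, where 0.824% of all genes were, with a median of -0.29.

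In lipid synthesis, 0 of 24 measured lipogenesis genes were called (0.39% of all genes were), with a median of -0.00. Elovl5, a fatty acid elongase, was at 12.46, 12.36 and 12.76 in wild type and 11.32, 11.90 and 11.84 in null livers (-0.84 ± 0.16, adjusted p = 0.055). Cholesterol synthesis ran the other way: 15 of 18 measured genes were above 0, 6 had null arrays wholly above wild type arrays (8.55% of all genes did), and the median was 0.35, but 0 were called. Msmo1, a sterol methyl oxidase, was at 8.23, 8.40 and 9.59 against 9.96, 10.24 and 10.23 (1.40 ± 0.52, adjusted p = 0.276) and Sqle, squalene epoxidase, at 7.14, 7.88 and 8.20 against 8.96, 9.60 and 9.17 (1.51 ± 0.63, adjusted p = 0.331). The groups did not overlap for either gene.

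**Figure D4:**
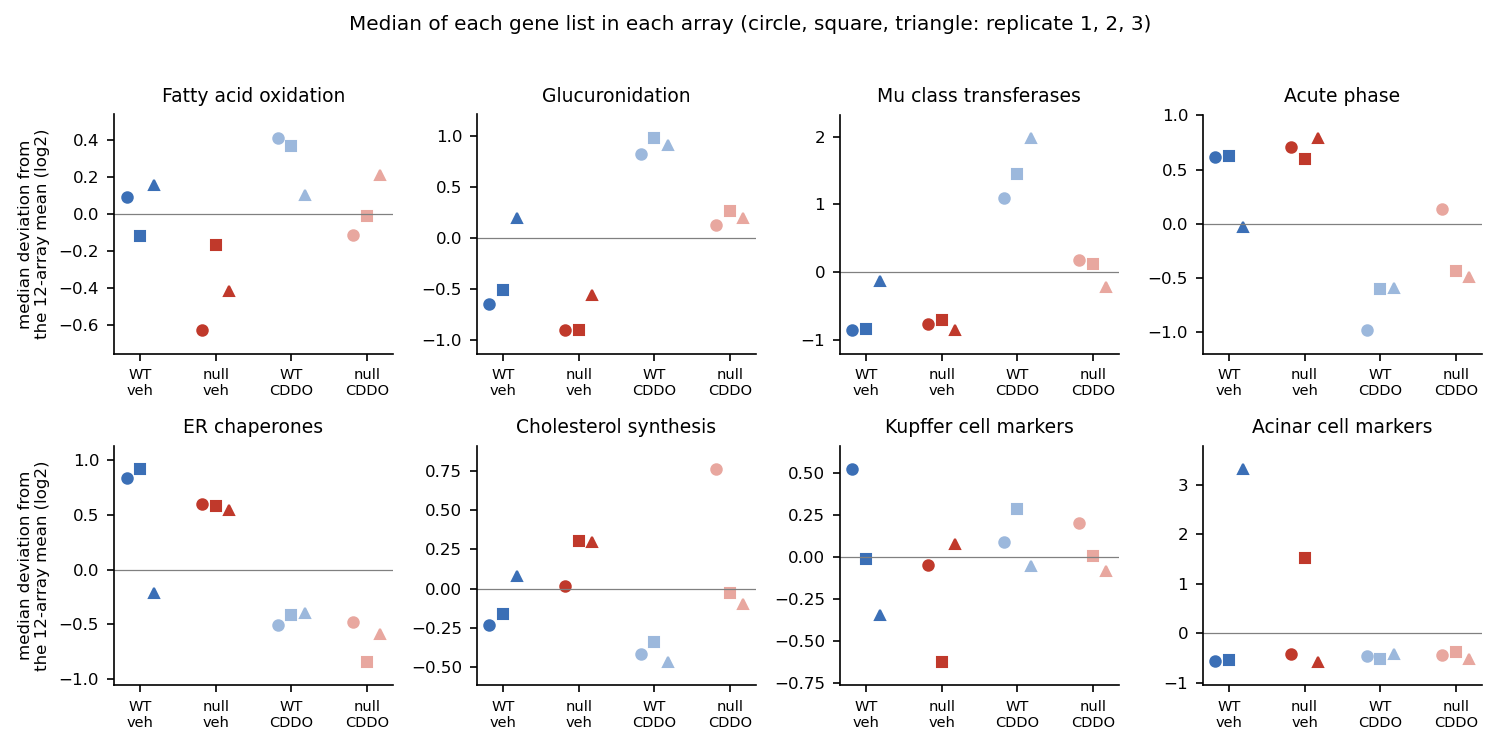
Median deviation of each gene list from its mean over 12 arrays (vertical axis, log2) in every array, by genotype and treatment. Wild type vehicle replicate 3 (blue triangle) lies nearer the CDDO-Im arrays for endoplasmic reticulum chaperones (-0.21, beside 0.84 and 0.91) and the acute phase (-0.03, beside 0.62 and 0.62), and at 3.32 for acinar markers; the null arrays are the lowest vehicle arrays for fatty acid oxidation.

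The acute phase and endoplasmic reticulum lists moved with that same wild type array. Of 26 measured acute phase genes, 25 were above 0 in null livers and 9 had null arrays wholly above, with a median of 0.27, but without replicate 3 the median was 0.05 and 9 genes were below 0. None was called in either case. Saa3, a serum amyloid A protein, was at 10.19, 10.41 and 8.90 in wild type and 10.85, 12.56 and 11.30 in null livers (1.74 ± 0.47, adjusted p = 0.141). Socs3, a feedback inhibitor of cytokine signalling, was at 10.07, 10.59 and 6.56 against 11.11, 11.07 and 10.56, so its difference of 1.84 ± 0.84 came mostly from 1 array and was 0.58 without it. Junb, an AP-1 subunit, was at 7.96, 8.16 and 6.33 against 8.88, 9.06 and 8.87, and was called higher without replicate 3 (0.88, adjusted p = 0.00331) but not with it (1.46, adjusted p = 0.107).

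Endoplasmic reticulum chaperones had 0 of 22 called with all arrays and a median of 0.03, which turned to -0.33 without replicate 3, with 4 genes called lower: Creld2 (-1.10), Atf6 (-0.73), Pdia3 (-0.64) and Pdia4 (-0.75), where 0.973% of all genes were called lower. Creld2, a secreted unfolded protein response target named, like Pdia4, for this count, was at 11.35, 11.48 and 9.10 in wild type and 10.42, 10.37 and 10.15 in null livers, and so below wild type replicates 1 and 2 and above replicate 3. The ATF4 targets Asns, Trib3, Psat1 and Mthfd2, which serve amino acid and one-carbon metabolism or feed back on ATF4, were likewise 4 of 18 called lower without replicate 3 and 0 with it. Psat1, phosphoserine aminotransferase, was at 6.67, 7.71 and 4.73 against 4.69, 4.78 and 5.42 (-1.40, adjusted p = 0.31, or -2.22, adjusted p = 0.0103, without it). Its null arrays and wild type replicate 3 lay under the array medians of 5.77 to 5.83. Cytosolic heat shock genes had 16 of 18 below 0 and a median of -0.40 (-0.12 without replicate 3), with 0 called. Hsp90aa1 was at 10.29, 10.50 and 10.78 against 9.78, 9.9998 and 9.95 (-0.61, adjusted p = 0.0998).

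Markers of other liver cell types were not called between genotypes with all arrays in any of 11 lists. Kupffer cell and macrophage markers had 13 of 15 below 0 and a median of -0.27. Their summed signal was 12.3 to 13.2 in wild type and 11.9 to 12.8 in null livers, which overlap. Without replicate 3 the median was -0.54, and Cd163, a macrophage scavenger receptor named for this count, was called (-0.94, adjusted p = 0.0438). Stellate cell markers had 9 of 12 below 0 and a median of -0.30 (-0.16 without replicate 3). Acinar markers had 14 of 15 below 0 and a median of -0.43, but 15 of 15 above 0 and a median of 0.80 without replicate 3. Endothelial markers had a median of -0.06 and hepatocyte markers of 0.03. In bulk liver, fewer cells of a type and less RNA per cell cannot be told apart, and the part of these markers in the calls was not tested.

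Genes on the chromosome of the targeted locus were among the calls. Of 1399 genes tested on the chromosome of Nfe2l2, chromosome 2, 8 were called (0.572%, against 0.39% of all genes): Nfe2l2 itself, 4 others that fell (Fam171b, Cd59a, BC029722 and Wfdc2) and 3 that rose (Ptpmt1, Atg13 and Cst3). Within 100 tested genes on either side of Nfe2l2, 3 of 200 (1.5%) were called, Fam171b, Ptpmt1 and Atg13, at 33, 73 and 94 genes from it. Ptpmt1, a mitochondrial phosphatase of cardiolipin synthesis, was at 9.67, 9.68 and 10.03 in wild type and 10.41, 10.69 and 10.50 in null livers (0.74 ± 0.11, adjusted p = 0.0206). Atg13, a subunit of the autophagy initiation complex, was at 7.72, 7.82 and 7.63 against 8.34, 8.05 and 8.27 (0.50 ± 0.09, adjusted p = 0.0414, and 0.0554 without replicate 3). Ptpmt1 was called in 3 of the 6 leave-outs and Atg13 in 1. Of the 7 besides Nfe2l2, 6 were also called under CDDO-Im, Atg13 being the exception, against 15 of the 63 called genes elsewhere. On chromosome 7, 6 of 8 vehicle calls were called under CDDO-Im too, on chromosome 1, 3 of 8, and on chromosome 3, 0 of 9. Chromosomes 3 (0.986%), 15 (0.967%) and 1 (0.757%) had a larger share called under vehicle than chromosome 2. A share called over the whole chromosome, and calls shared with CDDO-Im, were thus not found on chromosome 2 alone. The share within 100 genes was not counted around other genes. DNA that flanks a targeted gene and comes from another strain can stay with it in breeding, but the labels name no strain, and its part here was not tested.

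Set beside the difference in the 6 CDDO-Im arrays, which shares the error estimate but no group mean with it, the resting difference was in part the same and in part not. Under CDDO-Im, 263 genes were called between genotypes, 150 lower (0.824%) and 113 higher (0.621%) in null. Of the 71 vehicle calls, 22 were also called there (31% of the vehicle and 8.37% of the CDDO-Im calls), all 22 with the same sign. Of the 71, 65 had the same sign under CDDO-Im (91.5%, against 58.6% of all genes), and 61 had the larger size under vehicle, with a median size of 0.81 under vehicle and 0.27 under CDDO-Im. These genes were chosen by their vehicle difference, so the larger size under vehicle is a description and no finding.

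The genes that kept their size included Nfe2l2 (-3.89 and -3.84), Cst3 (1.31 and 1.35), Cd59a (-1.45 and -1.30), Fam171b (-2.14 and -1.88), C9 (0.69 and 0.70) and Alkbh6, a member of the AlkB dioxygenase family (0.68 and 0.69), the values being the differences under vehicle and CDDO-Im. Foxa3 (0.70 and 1.03), Cab39l (0.60 and 0.89) and Ptpmt1 (0.74 and 1.01) were called in both. Ppara (-1.13 and 0.24), Cyp2d22 (-1.37 and -0.24), Dhrs7, a short-chain dehydrogenase (-1.22 and -0.27), Gstp3 (-1.06 and -0.11) and Bmper (1.65 and 0.23) were called under vehicle and not under CDDO-Im, and for these 5 the change between treatments was not itself called. The test of that change called 25 genes (0.137%), of which 24 were called under CDDO-Im and 1, Cxcl1, under vehicle. Cxcl1 was at 9.19, 8.97 and 8.999 in wild type and 9.04, 9.22 and 9.08 in null livers under CDDO-Im, where the groups overlap (0.06 ± 0.17), so its null excess of 1.94 was found under vehicle, with a change of 1.88 ± 0.24 (interaction adjusted p = 0.00715, and 0.00319 without wild type vehicle replicate 3).

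**Figure D5:**
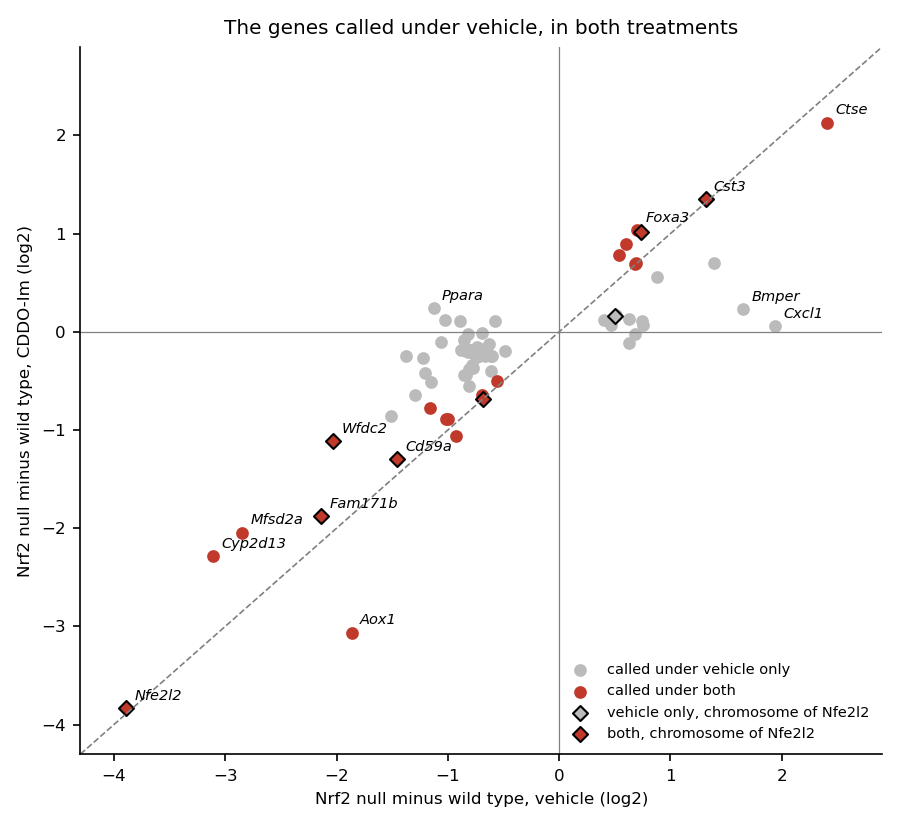
Log2 difference of Nrf2 null minus wild type under vehicle (horizontal axis) and under CDDO-Im (vertical axis) for the 71 genes called under vehicle; red points were called in both, diamonds lie on the chromosome of Nfe2l2 and the dashed line marks equal differences. The 22 genes called in both lie on the same side of 0 in both, and Cxcl1 (1.94, 0.06) lies close to the horizontal axis.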

How the data were processed

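Liver RNA was hybridised to Affymetrix mouse arrays. The authors deposited log2 intensities, 1 per probe set and array, from RMA (version not given) according to the submitters' processing notes; 45101 probe sets (64 controls) had array medians of 5.77 to 5.83, and values were used as deposited. Of the rest, 34945 probe sets named 1 gene, 932 several and 9160 none; those naming several or none were left out. A gene was represented by its probe set with the highest mean over the 12 arrays, and none was left out for low signal. All 12 arrays entered a limma model (limma 3.58.1, statmod 1.5.0, R 4.3.3) that gives each group its own mean; the moderated test was two-sided, and p was adjusted over 18193 genes by Benjamini-Hochberg. Calls were made at an adjusted p under 0.05. The number of arrays limits the precision. With 3 against 3 arrays an exact permutation test cannot go below 0.1 and was not used. The fit was tested on simulated data. Gene lists (34, and 11 of cell markers), their members and the alternatives were chosen with earlier results of these data known. Genes could be named as the 15 largest rises or falls with no overlap of arrays, as the 6 members of any list with lowest adjusted p, as called neighbours of Nfe2l2, or as 1 of a set of known Nrf2 genes; exceptions are marked. Same-numbered vehicle arrays of the genotypes did not deviate together (r = 0.04, -0.21 and -0.21), so no pairing by number was assumed. With 3 arrays in a group these values cannot exclude one.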

Additional observations from a re-analysis of the deposited data

Results flagged for a closer look

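For 13 of the named genes the genotype difference itself changed with the compound. Each change is the log2 difference of Nrf2 null minus wild type under vehicle minus that under CDDO-Im, tested as an interaction in limma (n = 3 arrays in each of 4 groups), and each kept an adjusted p under 0.05 without wild type vehicle replicate 3. A change above 0 means that the difference of null minus wild type was lower under the compound than under vehicle. It was 2.03 for Nqo1 (adjusted p = 5.0e-06), 2.81 for Srxn1 (8.7e-08), 1.80 for Gsr (0.000122) and 1.48 for Txnrd1 (0.00332). Among transferases and conjugation genes it was 2.71 for Gstm3 (0.00825), 2.75 for Gstm4 (0.00083), 2.17 for Ugdh (0.0238) and 1.52 for Ugt2b35 (0.00825). It was 1.95 for Cbr3 (6.1e-05), 3.03 for Ces1g (0.0011), 1.60 for Blvrb, biliverdin reductase B (0.00775), and 2.50 for Pgd (6.6e-05). For these 12 the vehicle difference lay between -0.74 and 0.28 and was not called, and the CDDO-Im difference lay between -3.77 and -1.81. For Cxcl1 the change of 1.88 (adjusted p = 0.00715) came from a null excess of 1.94 under vehicle and 0.06 under CDDO-Im.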

How the results depend on the processing

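The count of genes called between genotypes under vehicle, 71, was 50 to 101 with other probe set rules, another quantile normalisation, median centring, a signal filter, an intensity trend and the replicate block. It was 18 with only the 6 vehicle arrays, 1477 with array weights, 16 at an adjusted p under 0.01, 8 against a 1.5-fold minimum, 19 to 219 with single arrays left out and 117 without wild type replicate 3 and null replicate 2. With the replicate number as a block, which the arrays do not bear out as a pairing, it was 80, that under CDDO-Im 231, the interaction count 20, and list genes called 15, against 7 without the block. List genes called were 2 with only the vehicle arrays, at the stricter threshold and with the fold minimum, 107 with array weights, 2 to 30 with single arrays left out and 22 without both. The CDDO-Im count of 263 was 443 with every probe set, 123 at the stricter threshold, 28 with the fold minimum, 151 to 464 with single arrays left out and 411 without both. The interaction count of 25 was 50 with every probe set, 89 with array weights, 15 at the stricter threshold, 10 with the fold minimum, 15 to 46 with single arrays left out and 39 without both. The cause of these moves was not tested, beyond fewer arrays or stricter thresholds where named.

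Of the genes named, 44 were called; 6 of these stayed called in all alternatives and 0 changed sign. Signs changed for 6 uncalled genes. With array weights Keap1 was at -0.080, Gsta2 at 0.046 and Gstm4 at 0.030. With the mean of a gene's probe sets Keap1 was at -0.065 and Srxn1 at -0.068. With 1 array left out, or wild type replicate 3 and null replicate 2 together, the difference ran from -0.020 to 0.074 for Keap1, from -0.041 to 0.039 for Srxn1, from -0.72 to 0.16 for Gsta2, from -0.32 to 0.087 for Gstm4, from -0.14 to 0.042 for Cbr3 and from -1.13 to 0.092 for Creld2.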
